A study of Homo sapiens with 4 samples.

Results

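The high-score barcodes were BEAS-2B cells whose transcripts held an unusually large share of THBS1, CCN1 and CCN2, the genes of 3 secreted matricellular proteins. They were chosen by the measured share itself. Every barcode with at least 5000 unique molecular identifiers (UMIs, 1 per captured mRNA molecule) and at most 10% of UMIs in mitochondrially encoded genes received a score, the summed UMIs of the 3 genes over its total UMIs. Barcodes over the 90th percentile of their own library were taken, which gave 900 of 8998 in the control, 1252 of 12515 at 10 mGy, 1425 of 14245 at 100 mGy and 1146 of 11455 at 1 Gy, 4723 of 47213 in all. The files hold 68085 barcodes.

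BEAS-2B cells are human bronchial epithelium that was immortalized for culture. The control library held cells without irradiation, and the other libraries held cells given 10 mGy, 100 mGy or 1 Gy of Cs-137 gamma rays and cultured briefly before droplet sequencing of mRNA 3′ ends. Each dose had 1 library of a single line with no replicate, so dose and library cannot be told apart and no test between doses was made. High-score and other barcodes of 1 library shared a culture, a dose and a sequencing run, and the comparison between them was repeated over the 4 libraries.

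Matricellular proteins are secreted into the matrix around a cell, where they modulate adhesion, growth factor activity and cell shape rather than serving as structural fibres. THBS1 (thrombospondin 1) binds integrins and CD47 and can activate latent TGF-beta, and CCN1 (CYR61) and CCN2 (CTGF) are cysteine-rich integrin ligands. CCN1 and CCN2 are textbook targets of the coactivators YAP and TAZ, which act with TEAD factors when cells are spread or under tension, and they also respond to serum, to SRF and to TGF-beta.

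The upstream 250 bases of the THBS1 and CCN2 starts are shown because these genes define the score and because the TEAD letters GGAATG can be read in them. Sequences are from RefSeq, build GRCh38.p14, 5′ to 3′ on the gene's strand and ending at the base before the gene start, with matches to GGAATG on either strand in capitals. The table used here held 2 of the 3 score genes, without CCN1.
THBS1 promoter, chr15:39580829-39581078, plus strand: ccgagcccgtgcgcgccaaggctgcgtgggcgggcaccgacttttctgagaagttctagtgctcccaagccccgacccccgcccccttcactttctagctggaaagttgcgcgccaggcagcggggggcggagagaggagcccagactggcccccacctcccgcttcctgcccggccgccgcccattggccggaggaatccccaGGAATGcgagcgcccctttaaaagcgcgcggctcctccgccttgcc
CCN2 promoter, chr6:131951373-131951622, minus strand: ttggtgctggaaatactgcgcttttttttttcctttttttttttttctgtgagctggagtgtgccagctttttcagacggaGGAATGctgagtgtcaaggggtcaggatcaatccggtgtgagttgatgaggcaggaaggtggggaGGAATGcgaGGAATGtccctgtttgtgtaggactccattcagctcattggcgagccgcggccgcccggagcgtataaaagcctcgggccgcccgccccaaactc
The stretch held 1 match in THBS1, starting 46 bases before the gene start, and 3 in CCN2, starting 169, 104 and 95 bases before it. Of all 35116 promoter entries of the same length, 11.9% held at least 1. A match of letters is a description of the sequence and was not tied to binding in these cells.

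Over all deposited barcodes the libraries held 211752280 to 285806026 UMIs, so counting error is small for abundant transcripts and the single library per dose limits precision. Sums over high-score barcodes, or over parts of them, hold far fewer UMIs, so scarce transcripts carry more counting error there. The control and 1 Gy libraries stood apart from the other pair, with 14.1% and 14.1% of UMIs in ribosomal protein genes (median over barcodes outside the high-score set) against 20.3% at 10 mGy and 22.2% at 100 mGy, so values are given per library. In high-score barcodes this share was 13.4%, 19.2%, 20.8% and 13.4% in the order of doses, lower in each library. High-score barcodes had somewhat fewer UMIs than the others, with medians of 20173 against 21939.5 in the control, 18889 against 20173 at 10 mGy, 14266 against 15418 at 100 mGy and 15210.5 against 16666 at 1 Gy. Their median percentage of mitochondrially encoded UMIs was 5.82 against 5.98 in the control, 4.78 against 4.72 at 10 mGy, 4.75 against 4.56 at 100 mGy and 5.61 against 5.75 at 1 Gy, without a common direction. Of 46974 distinct eligible barcode sequences 239 occurred in at least 2 libraries, and 3 of 4720 among high-score barcodes.

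Of the usual epithelial markers only some were abundant in these cells. KRT7, KRT8 and KRT18 were abundant, with KRT7 at 564 to 822 CPM (UMIs of a gene scaled to 1000000 in all) in high-score barcodes, whereas EPCAM was at 0.702 to 1.15, CDH1 at 0 to 0.108, and TP63 had no UMI in high-score barcodes of any library. The 8 epithelial markers summed to 1118 to 1425 CPM in high-score and 1005 to 1136 in other barcodes, and 1 or 2 of them were at 0 in the high-score barcodes of each library. The 7 fibroblast markers summed to 35.3 to 47.0 CPM in high-score and 27.8 to 34.2 in other barcodes, nearly all of it COL1A1 and PDGFRB, with COL1A2, COL3A1, DCN and LUM each under 0.3 in every library. Endothelial markers summed to 0.455 to 0.864 CPM in high-score and 0.472 to 0.775 in other barcodes. Leukocyte markers, nearly all CD68, summed to 7.26 to 11.5 CPM in high-score and 7.11 to 10.98 in other barcodes, with CD3E at 0 throughout. Smooth muscle markers summed to 3.37 to 4.59 CPM in high-score and 3.004 to 3.55 in other barcodes. Markers of ciliated and secretory airway cells summed to at most 0.054 CPM in high-score and 0.059 in other barcodes. The sums of the epithelial and fibroblast lists were higher in high-score barcodes in each library, and their part in the results was not tested. KRT7, KRT8, KRT18 and COL1A1 were higher in each library. EPCAM was lower in each library, KRT19 in all but that of 1 Gy, and PDGFRB in the control and at 1 Gy. In high-score barcodes of a library EPCAM had 13 to 25 UMIs and KRT19 24 to 50, so the directions of these genes are uncertain.

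The score had no gap at the threshold. A percentile cut through this many barcodes gives close values on both sides for most shapes of distribution. Per 10000 UMIs the 90th percentile lay at 27.2 for the control, 17.0 for 10 mGy, 16.3 for 100 mGy and 27.0 for 1 Gy. In the control the lowest high-score barcode had 27.2463 and the highest other barcode 27.2212 per 10000, and the pair was 17.0416 and 17.038 at 10 mGy, 16.3083 and 16.3046 at 100 mGy, and 27.0088 and 27.0027 at 1 Gy. Within 5% of the threshold lay 195, 280, 243 and 221 high-score barcodes in the order of doses, and 214, 328, 341 and 298 others. The high-score barcodes were by choice the upper end of the score, and they are given no cell type name. Values at the cut cannot show whether a distinct subgroup lies elsewhere in the score.

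The score genes themselves are given without a test, since they selected the barcodes. THBS1 was at 1841 against 659.5 CPM in the control, 700.3 against 271 at 10 mGy, 665 against 259 at 100 mGy and 1765 against 609 at 1 Gy, high-score against other barcodes. The control and 1 Gy libraries held more THBS1 in both kinds of barcode than the libraries of 10 and 100 mGy. CCN1 was at 1066 against 727 CPM in the control, 933 against 535 at 10 mGy, 947 against 477 at 100 mGy and 1139.5 against 755 at 1 Gy. CCN2, the least abundant of the 3, was at 412 against 208 CPM in the control, 415 against 173 at 10 mGy, 389.7 against 139 at 100 mGy and 389 against 198 at 1 Gy. Its level in high-score barcodes was nearly the same in the 4 libraries.

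**Figure D1:**
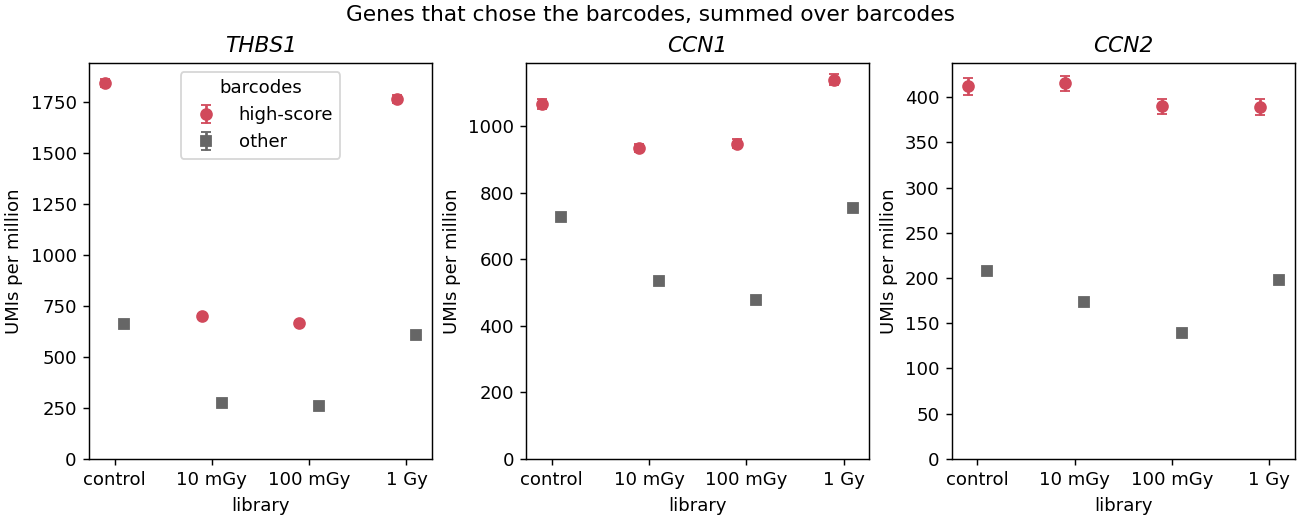
CPM (vertical axis, linear from 0) of THBS1, CCN1 and CCN2 in each library, summed over high-score barcodes (circles) and over the other barcodes (squares), with exact 95% intervals that cover counting error only. THBS1 in high-score barcodes is 1841 in the control and 1765 at 1 Gy against 700.3 and 665 at 10 and 100 mGy.

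A barcode could reach the threshold through 1 gene alone, and most did not carry all 3 at a high level. In the order of doses, 4.33%, 3.12%, 3.79% and 3.49% of the high-score barcodes lay in the top 10% of their library for each of the 3 genes, while 35.2%, 40.3%, 39.9% and 35.2% did so for at least 2. THBS1 gave more UMIs than CCN1 and CCN2 together in 62.4% of them in the control and 56.7% at 1 Gy, but in 23.2% at 10 mGy and 20.7% at 100 mGy. The mix of genes behind the score thus differed between libraries.

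Each gene was then measured in barcodes chosen without it, to ask whether the 3 transcripts rise in the same cells. CCN2 was clearly higher in barcodes selected on THBS1 and CCN1, and THBS1 and CCN1 were only slightly higher in barcodes selected on the other pair. A pair's share sums UMIs, so its more abundant gene weighs more. Over all control barcodes CCN2 was at 226 CPM, against 757 for CCN1 and 765 for THBS1. Selection on CCN2 with another gene thus rested more on that gene, and how far this shaped the contrast was not tested. CCN2 was at 333 against 216 CPM in the control, 299.7 against 185 at 10 mGy, 279 against 149.9 at 100 mGy and 319 against 205 at 1 Gy, barcodes over the 90th percentile of the other pair's share against the rest. The log2 difference was 0.69 ± 0.029 (SE, n = 4 libraries), adjusted p = 4.2e-13 (edgeR's quasi-likelihood test on sums per library, with library as a block and Benjamini-Hochberg adjustment over all genes), a 1.61-fold rise. CCN2 was higher in each of the 4 libraries, by 0.63 to 0.89.

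THBS1 was at 885 against 754 CPM in the control, 338 against 307 at 10 mGy, 341 against 289.8 at 100 mGy and 789 against 705 at 1 Gy when barcodes were selected on CCN1 and CCN2. The log2 difference was 0.17 ± 0.019 (SE, n = 4 libraries), adjusted p = 1e-10 by the same test, a 1.12-fold rise. CCN1 was at 819 against 752 CPM in the control, 639 against 565 at 10 mGy, 620.4 against 509.6 at 100 mGy and 857 against 783 at 1 Gy when barcodes were selected on THBS1 and CCN2, with a log2 difference of 0.16 ± 0.021 (SE, n = 4 libraries), adjusted p = 1.8e-08, a 1.12-fold rise. Both rose in each of the 4 libraries, with fitted rises under the 1.2-fold used below to call a gene. Of the single libraries, only CCN1 at 100 mGy passed it, at a log2 difference of 0.28. Among barcodes with at most 5% mitochondrially encoded UMIs the THBS1 difference was 0.32, past that fold. Against barcodes at or under the median score that of CCN1 was 0.257, just under it. The 5% limit left 157 selected and 1412 other barcodes in the control and 229 and 2062 at 1 Gy. It left 775 and 6969 at 10 mGy and 939 and 8447 at 100 mGy. Matching on the cell cycle left 0.10 for THBS1, 0.08 for CCN1 and 0.50 for CCN2. In the same order, matching on depth left 0.11, 0.15 and 0.69. Selection after thinning to 5000 UMIs left 0.11, 0.15 and 0.59, and no floor on expression 0.14, 0.09 and 0.63. Without the library as a block the log2 differences were the same but the adjusted p was 1.00, 1.00 and 0.088.

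Over deciles of the other pair's share, CCN2 rose 2.81-fold, 2.79-fold, 3.27-fold and 2.82-fold from the lowest to the highest decile in the order of doses. The same ratio was 1.33, 1.39, 1.49 and 1.33 for CCN1 and 1.43, 1.22, 1.32 and 1.40 for THBS1. Across single barcodes of a library, Spearman's rho between the shares was 0.303 to 0.343 for CCN1 and CCN2, 0.138 to 0.204 for THBS1 and CCN2 and 0.0204 to 0.0658 for THBS1 and CCN1, over 8998 to 14245 barcodes that share a library and a total in the denominator. After thinning each barcode to 5000 UMIs it was 0.15 to 0.161, 0.0553 to 0.104 and 0.0118 to 0.0462. CCN2 stood between the others, and THBS1 and CCN1 were nearly unrelated in single barcodes.

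**Figure D2:**
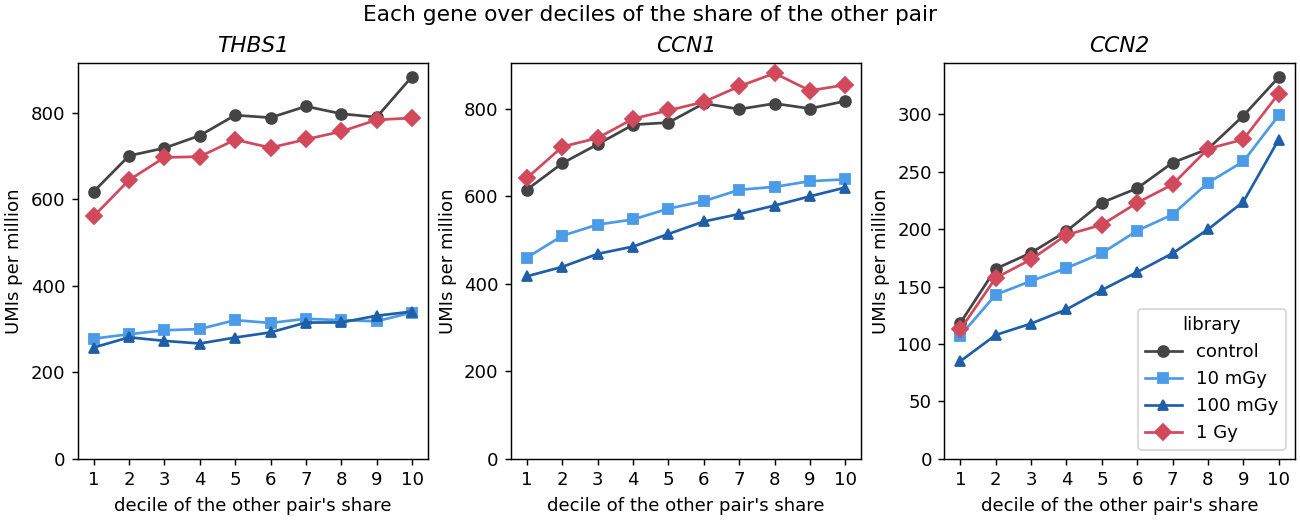
CPM of each score gene (vertical axes, linear from 0) over deciles of the summed share of the other pair (horizontal axis), 1 line per library. CCN2 climbs over the whole range in all 4 libraries, 2.79-fold to 3.27-fold, while THBS1 and CCN1 climb by at most 1.49-fold.

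Outside the 3 score genes, high-score barcodes carried more transcripts of TGFB2, of matrix genes such as FN1 and COL4A1 and of ANKRD1, F3 and HBEGF, and fewer transcripts of mitosis genes such as AURKA and PLK1. Of 8553 genes averaging 10 CPM or more (from here on after edgeR's TMM scaling, with the score genes left out), 227 were higher and 137 lower by over 1.2-fold with an adjusted p under 0.05 (edgeR's quasi-likelihood test, library as a block, Benjamini-Hochberg adjustment). These are 2.65% and 1.6% of the genes tested, and all but 1 of the genes called higher moved in the same direction in all 4 libraries, as did all those called lower. The differences were small, with a median log2 difference of 0.34 among genes called higher and -0.36 among genes called lower, beside -0.01 over all genes tested. Without the library as a block, so that differences between libraries count as spread, 1 gene was called higher and 5 lower. Of the called genes, 22 of 227 higher and 6 of 137 lower passed the 10 CPM floor only through the kind of barcode where they were high.

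The cell cycle moved with the score. The median share of UMIs in 24 G2/M and mitosis genes, per 10000, was 30.8 against 39.3 in the control, 26.0 against 30.4 at 10 mGy, 27.9 against 34.5 at 100 mGy and 32.9 against 42.0 at 1 Gy, high-score against other barcodes, and that in 20 replication and G1/S genes was 24.1 against 21.2 in the control, 22.8 against 19.5 at 10 mGy, 21.4 against 17.6 at 100 mGy and 24.7 against 21.5 at 1 Gy. When each high-score barcode was paired with another barcode of the same library in the same of 5 equal classes of each share, 84 genes were called higher and 9 lower, 0.983% and 0.105% of 8545 tested. Of the genes called without matching, 81 of 227 and 5 of 137 were among them. For the genes described at length a matched value is given with them or with their group, and for lists with calls it is said which or how many stayed called after matching. A value printed without one is unmatched. At an adjusted p under 0.05 alone, whatever the fold, 1760 genes (20.6%) were higher and 2124 (24.8%) lower without matching, which is the background for list counts given at that limit. Calls within a list are read against 2.65% higher and 1.6% lower of all genes, and 0.983% and 0.105% after matching.

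TGFB2, which encodes a TGF-beta ligand, showed the largest rise among genes with a mean of at least 50 CPM. It was at 96.2 against 54.6 CPM in the control, 66.7 against 41.3 at 10 mGy, 56.2 against 31.6 at 100 mGy and 83.2 against 48.4 at 1 Gy, high-score against other barcodes. High-score barcodes were above the others in each library, and the log2 difference was 0.78 ± 0.028 (SE, n = 4 libraries), adjusted p = 7.8e-16, a 1.72-fold rise (0.67 when matched for the cell cycle). From the lowest to the highest decile of the score TGFB2 was 2.82-fold, 2.38-fold, 2.68-fold and 2.63-fold higher in the order of doses. These ratios are from CPM without TMM scaling.

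ANKRD1, a muscle and stress-responsive ankyrin repeat protein and a familiar YAP target, was at 101 against 58.1 CPM in the control, 131 against 89.8 at 10 mGy, 94.4 against 57.1 at 100 mGy and 91.5 against 58.3 at 1 Gy. Its log2 difference was 0.67 ± 0.030 (SE, n = 4 libraries), adjusted p = 2.4e-14, and 0.40 when matched for the cell cycle. FN1, fibronectin, was the most abundant of the genes with a large rise, at 2142 against 1329 CPM in the control, 951 against 663 at 10 mGy, 1044 against 712 at 100 mGy and 1947 against 1253 at 1 Gy. Its log2 difference was 0.60 ± 0.024 (SE, n = 4 libraries), adjusted p = 4.5e-15, and 0.54 when matched. The FN1 level differed between libraries as that of THBS1 did, higher in the control and at 1 Gy, while its rise with the score was of similar size in all 4.

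KRT17, a keratin of basal and stressed epithelium, was at 107 against 65.4 CPM in the control, 156 against 113 at 10 mGy, 161 against 109 at 100 mGy and 89.8 against 55.5 at 1 Gy, with a log2 difference of 0.60 ± 0.030 (SE, n = 4 libraries), adjusted p = 1.5e-13. COL4A1, a chain of basement membrane collagen, was at 194 against 127 CPM in the control, 99.4 against 70.6 at 10 mGy, 94.0 against 66.3 at 100 mGy and 165 against 113 at 1 Gy, with a log2 difference of 0.54 ± 0.024 (SE, n = 4 libraries), adjusted p = 1.3e-14. F3, tissue factor, which starts the coagulation cascade, was at 413 against 294 CPM in the control, 315 against 225 at 10 mGy, 255 against 163 at 100 mGy and 325 against 234 at 1 Gy, with a log2 difference of 0.52 ± 0.025 (SE, n = 4 libraries), adjusted p = 6.1e-14. The matched values were 0.54, 0.46 and 0.35, so the rises of these 3 genes were smaller but still called after matching.

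The rest of the 15 largest rises were GREM1, a BMP antagonist (0.52 ± 0.023), HBEGF, an EGFR ligand (0.49 ± 0.025), SPOCD1 (0.49 ± 0.027), the scaffold protein AKAP12 (0.46 ± 0.020), FSCN1, the actin bundler fascin (0.43 ± 0.029), the DNA repair genes BRIP1 (0.47 ± 0.027) and NABP1 (0.44 ± 0.028), and the histone genes HIST1H2AH (0.53 ± 0.040) and HIST1H1D (0.44 ± 0.040), as log2 difference ± SE. Matching for the cell cycle left 12 of the 15 called. HIST1H2AH, BRIP1 and HIST1H1D fell under the 1.2-fold limit, at 0.25, 0.26 and 0.13. Histone genes are close copies whose mRNAs mostly lack a poly(A) tail, so their counts in a poly(A)-primed library are uncertain.

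**Figure D3:**
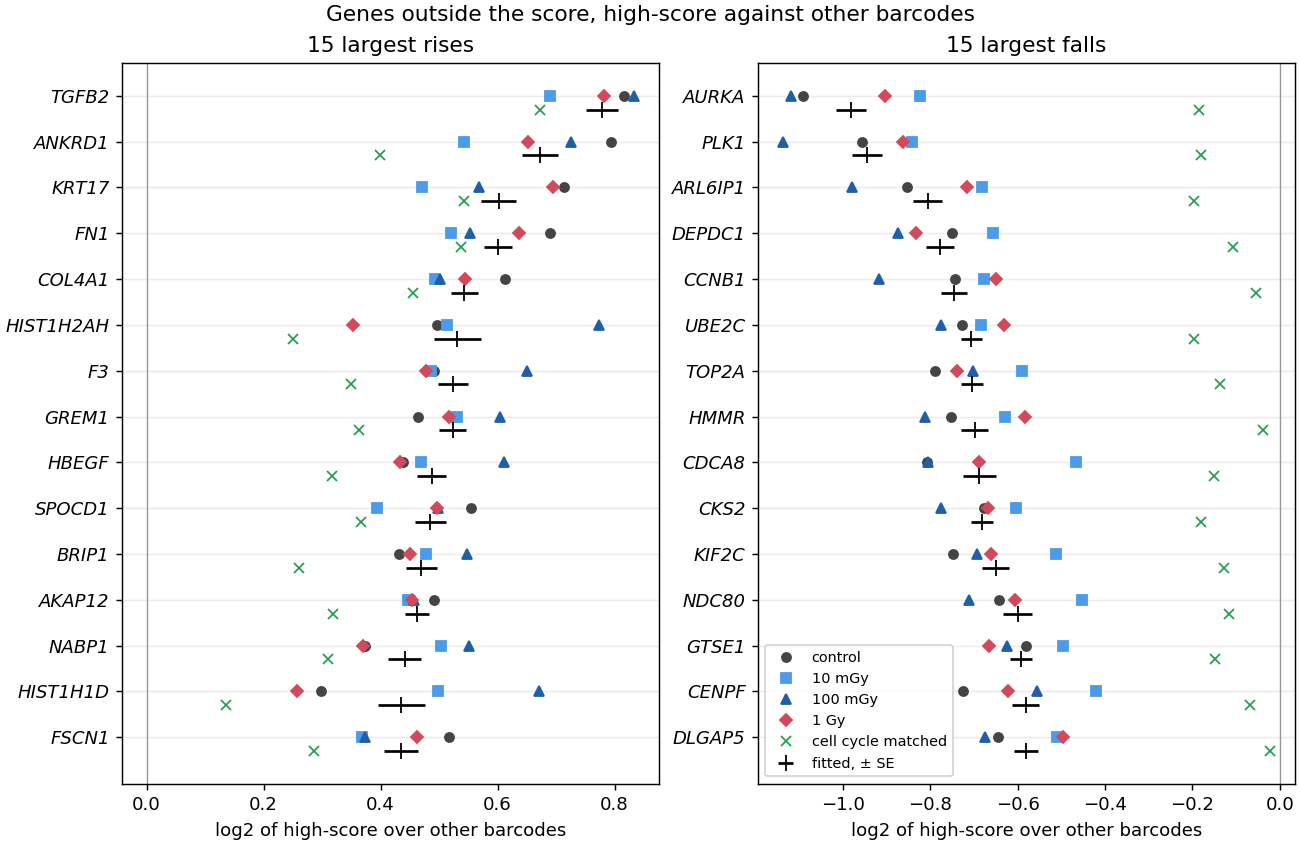
Log2 of the level in high-score over other barcodes (horizontal axes) for the 15 largest rises and the 15 largest falls, with 1 symbol per library, the fitted difference with its SE (black) and the fitted difference after cell cycle matching (green cross). After matching, the rises lie at 0.13 to 0.67 and the falls at -0.20 to -0.02.

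Below 50 CPM, the rise of EDN1, the vasoactive peptide endothelin 1, was larger than any of these and was singled out after its values were seen. EDN1 was at 42.1 against 20.3 CPM in the control, 19.1 against 11.3 at 10 mGy, 32.8 against 17.6 at 100 mGy and 32.4 against 16.9 at 1 Gy, with a log2 difference of 0.93 ± 0.041 (SE, n = 4 libraries), adjusted p = 1.4e-14 (0.85 when matched). 2 further genes with large rises lie at the score genes themselves in GENCODE 29. AC037198.1, at 0.80 ± 0.041, lies inside THBS1 on the same strand, so reads of THBS1 can be counted to it, and AC092807.3, at 0.60 ± 0.035, lies within 10 kb of CCN1 on the opposite strand.

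YAP, TAZ and TEAD targets were mostly higher, by amounts that differed widely. Of 20 targets measured besides CCN1 and CCN2, 4 were called higher, against 2.65% of all genes, and 0 lower, with a median log2 difference of 0.12 beside -0.01 over all genes. The 4 were TGFB2, ANKRD1, F3 and GADD45B, a growth arrest and damage-inducible gene (0.29). The common targets AMOTL2 (0.08), AXL (-0.05), AJUBA (0.09), LATS2 (0.07) and NT5E (-0.12) stayed within 1.2-fold. At an adjusted p under 0.05 alone, 15 of 20 were higher and 2 lower, against 20.6% and 24.8% of all genes. After matching 3 of 20 were called, without GADD45B (0.20), and the median was 0.06. Of the 15 YAP, TAZ, TEAD and Hippo kinase genes none was called by edgeR at this fold, with 5 of 15 higher at an adjusted p under 0.05, not far above the 20.6% of all genes. The transcript of TAZ, WWTR1, came nearest at 0.25 ± 0.028 (SE, n = 4 libraries), adjusted p = 1.1e-07, and YAP1 was at -0.0047 ± 0.032.

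Motif letters in the promoters of the 15 largest rises were counted as a description. RefSeq entries were found for 11 of the 15, and GGAATG occurred in 3 of these genes (TGFB2, ANKRD1 and AKAP12), the AP-1 letters TGANTCA in 2 (ANKRD1 and F3) and the SRF-bound CArG box in 1 (AKAP12). Among 13 of the 15 largest falls with an entry, GGAATG occurred in 3 (HMMR, KIF2C and CENPF), TGANTCA in 0 and the CArG box in 0. The shares over all promoter entries were 11.9%, 6.57% and 1.16%. These shares are per entry, while a gene with several entries, such as AKAP12, was counted if any of them matched. Both strands of the 250 upstream bases were searched.

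Ligands, receptors and response genes of TGF-beta included several rises. Of 22 measured, 7 were called higher, against 2.65% of all genes, and 0 lower (median 0.11, 0.13 when matched, with 4 called against 0.983% of all genes). Besides TGFB2 these included TIMP3, a tissue inhibitor of metalloproteinases (0.44 ± 0.043), the secreted adhesion protein TGFBI (0.37 ± 0.025), LTBP2 (0.30 ± 0.046), PMEPA1 (0.29 ± 0.041) and BHLHE40 (0.28 ± 0.045). TGFBI was at 419 against 307 CPM in the control, 253 against 204 at 10 mGy, 255 against 209 at 100 mGy and 407 against 304 at 1 Gy, higher in high-score barcodes of each library, and at 0.27 when matched. The ligand TGFB1 (-0.01), the inhibitory SMAD7 (0.08) and the BMP-responsive ID1 (0.0024) and ID3 (-0.03) stayed near 0.

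Matrix genes rose in many cases. Of 19 collagen, laminin and other matrix genes measured, 10 were called higher, against 2.65% of all genes, and 0 lower, with a median of 0.27, and 7 were called after matching with a median of 0.20. They were FN1, COL4A1, the laminin chain LAMB3 (0.51 ± 0.043), COL1A1 (0.45 ± 0.042), COL5A1 (0.41 ± 0.029), COL4A2 (0.31 ± 0.022), fibrillin FBN1 (0.30 ± 0.026), COL8A1 (0.29 ± 0.037), COL7A1 (0.28 ± 0.057) and LAMB1 (0.27 ± 0.030). COL4A1 and COL4A2, whose products form 1 heterotrimer, thus both rose. COL6A1 (0.02), COL6A2 (-0.0092) and agrin AGRN (0.07) did not pass.

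Of 18 other matricellular genes only 5 were above 10 CPM, and 4 of these 5 were called higher. They were tenascin C (TNC), TGFBI, SPARC and SPOCK1, of which TGFBI stayed called after matching while TNC, SPARC and SPOCK1 (0.21) went under the fold limit. TNC was at 142 against 103 CPM in the control, 107 against 86.2 at 10 mGy, 87.2 against 67.5 at 100 mGy and 126 against 95.4 at 1 Gy, with a log2 difference of 0.39 ± 0.025 (SE, n = 4 libraries), adjusted p = 1.1e-11 and 0.26 when matched. SPARC was at 261 against 202 CPM in the control, 305 against 239.8 at 10 mGy, 255 against 208 at 100 mGy and 254 against 204 at 1 Gy, with a log2 difference of 0.33 ± 0.021 (SE, n = 4 libraries), adjusted p = 9.6e-12 and 0.25 when matched. The other members of both families, THBS2, THBS3, THBS4, CCN3, CCN4, CCN5 and CCN6, were under the 10 CPM floor, so the thrombospondin and CCN transcripts of these cells were largely those of the score genes.

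Among 14 receptors of THBS1, CCN1 and CCN2, 1 was called, the integrin subunit ITGB3 (0.45 ± 0.056, 0.46 when matched), while the median was 0.15 and 11, ITGB3 included, rose with an adjusted p under 0.05, against 20.6% of all genes. ITGB3, which pairs with ITGAV (0.15), averaged 12.3 CPM in high-score and 9.03 in other barcodes, so it passed the 10 CPM floor only through the group where it was high and its call is no support for the list. CD47, the THBS1 receptor, was at -0.04 ± 0.028. Among 10 matrix proteases and inhibitors, 3 were called higher, among them TIMP3 and the membrane protease MMP14 (0.29 ± 0.043), and 1, TIMP3, after matching, against 2.65% and 0.983% of all genes. Of the rest, TIMP1 was at -0.11 ± 0.024, and MMP1, MMP2 and MMP3 were under the floor.

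SRF targets, actin filament and focal adhesion genes were modestly higher as a list, with a median log2 difference of 0.19 and 0.17 when matched. Of 27 measured, 4 were called higher and 0 lower, and 21 rose with an adjusted p under 0.05, against 20.6% of all genes. After matching 5 were called. The called genes were TAGLN, SRF, the non-muscle myosin heavy chain MYH9 and vinculin (VCL). TAGLN, transgelin, was at 1306 against 960.0 CPM in the control, 1731 against 1377 at 10 mGy, 1954 against 1559.6 at 100 mGy and 1117 against 875 at 1 Gy, with a log2 difference of 0.36 ± 0.022 (SE, n = 4 libraries), adjusted p = 4.9e-12. MYH9 was at 2075 against 1609 CPM in the control, 1093 against 863 at 10 mGy, 1086 against 858 at 100 mGy and 2067 against 1606 at 1 Gy, with a log2 difference of 0.35 ± 0.020 (SE, n = 4 libraries), adjusted p = 1.2e-12 and a range over libraries of 0.34 to 0.37. The matched values of TAGLN and MYH9 were 0.36 and 0.34. The actins themselves were near 0, ACTB at 0.02 ± 0.020 and ACTG1 at 0.0017 ± 0.021.

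Immediate early genes included 5 called of 21 measured, all higher, against 2.65% of all genes (median 0.15, 0.13 when matched, with 2 called against 0.983%). EGR1 and JUNB stayed called, and the 5 were EGR1, ATF3 (0.35 ± 0.052), IER3 (0.35 ± 0.027), JUNB (0.32 ± 0.055) and KLF6 (0.31 ± 0.026). EGR1, a serum-responsive transcription factor, was at 35.4 against 36.5 CPM in the control, 101 against 51.9 at 10 mGy, 113 against 56.4 at 100 mGy and 57.4 against 47.0 at 1 Gy. High-score barcodes had far more EGR1 than the others at 10 and 100 mGy, a little more at 1 Gy and slightly less in the control. The log2 differences were -0.04, 0.97, 1.00 and 0.29 in the order of doses, with a fitted value of 0.63 ± 0.093 (SE, n = 4 libraries), adjusted p = 1e-05 (0.61 when matched). The adjusted p was 0.072 with DESeq2, which did not call it. EGR1 was the gene called higher that did not move the same way in all libraries, and whether this follows the dose, the library or the mix of score genes cannot be told apart. FOS (0.14), FOSL1 (-0.03) and JUN (0.13) stayed within 1.2-fold.

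Of 9 EGFR ligands and MAPK feedback genes, HBEGF was called, and EREG (0.24 ± 0.052) and EGFR (0.05 ± 0.022, -0.044 when matched) were not, with a median of 0.15. HBEGF stayed called after matching, at 0.32. Of 13 NF-kB targets and cytokines, the cytokine LIF (0.56 ± 0.043) and TNFAIP3 (0.34 ± 0.056) were called higher, and the median was -0.02 (0.02 when matched). LIF (0.43) stayed called after matching and TNFAIP3 (0.25) did not. LIF was at 32.9 against 22.9 CPM in the control, 22.8 against 15.6 at 10 mGy, 21.6 against 12.4 at 100 mGy and 30.7 against 22.2 at 1 Gy, higher in each library. CXCL8 (0.17), ICAM1 (-0.12) and NFKB1 (-0.02) did not pass.

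Of 14 epithelial and mesenchymal markers measured, 9 were higher and 1 lower at an adjusted p under 0.05, against 20.6% and 24.8% of all genes. KRT17, KRT81, which shares much of its sequence with other hair keratins and is uncertain (0.43 ± 0.048), the hemidesmosome integrin ITGB4 (0.34 ± 0.054) and KRT7 (0.26 ± 0.029) were called higher, with a list median of 0.17, and all but KRT7 (0.21) stayed called after matching. ITGB4 passed the floor only through high-score barcodes, at a mean of 12.5 CPM against 9.86, so its call is given as a description. The mesenchymal markers CDH2 (0.15), SNAI2 (0.19), ZEB1 (0.20), ZEB2 (-0.02), VIM (-0.02) and TWIST1 (-0.14), the 1 lower at that limit, stayed within 1.2-fold.

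Mitosis genes gave nearly all of the largest falls. AURKA, the mitotic kinase Aurora A, was at 115 against 245 CPM in the control, 119 against 209.7 at 10 mGy, 131 against 284 at 100 mGy and 135 against 252 at 1 Gy, with a log2 difference of -0.98 ± 0.034 (SE, n = 4 libraries), adjusted p = 5.3e-16. PLK1, another mitotic kinase, was at 46.2 against 89.6 CPM in the control, 43.1 against 77.3 at 10 mGy, 44.7 against 98.5 at 100 mGy and 56.7 against 103 at 1 Gy, with a log2 difference of -0.94 ± 0.035 (SE, n = 4 libraries), adjusted p = 8.1e-16. CCNB1, cyclin B1, was at 139.7 against 234 CPM in the control, 159 against 255 at 10 mGy, 165 against 311 at 100 mGy and 157 against 246 at 1 Gy, with a log2 difference of -0.75 ± 0.030 (SE, n = 4 libraries), adjusted p = 4.7e-15. In each library the high-score barcodes held the lower level. In the highest decile of the score AURKA was at 0.23, 0.338, 0.282 and 0.274 of its lowest-decile level (order of doses, CPM without TMM scaling).

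The other large falls were ARL6IP1 (-0.81 ± 0.033), DEPDC1 (-0.78 ± 0.033), the ubiquitin-conjugating enzyme UBE2C (-0.71 ± 0.024), topoisomerase TOP2A (-0.70 ± 0.026), HMMR (-0.70 ± 0.031), CDCA8 (-0.69 ± 0.039), CKS2 (-0.68 ± 0.025), the kinesin KIF2C (-0.65 ± 0.030), the kinetochore genes NDC80 (-0.60 ± 0.033) and CENPF (-0.58 ± 0.031), GTSE1 (-0.59 ± 0.025) and DLGAP5 (-0.58 ± 0.028). All 24 of 24 G2/M and mitosis genes measured were called lower, with a median of -0.55. Matching used this list, and afterwards its median was -0.06 with 1 called, CENPA. The matched values of AURKA, PLK1 and CCNB1 were -0.18, -0.18 and -0.05. None of the 15 largest falls stayed called after matching, although 11 of them kept an adjusted p under 0.05.

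Replication and G1/S genes went the other way. Of 19 measured, 7 were called higher and 0 lower, with a median of 0.23, and 0 were called after matching on this list (edgeR, median -0.009). CCNE2, cyclin E2, was at 49.7 against 36.6 CPM in the control, 53.8 against 36.9 at 10 mGy, 44.1 against 29.6 at 100 mGy and 51.9 against 37.0 at 1 Gy, with a log2 difference of 0.51 ± 0.029 (SE, n = 4 libraries), adjusted p = 1.7e-12 (0.02 when matched). The helicase genes MCM6 (0.43 ± 0.029), MCM3 (0.35 ± 0.023) and MCM2 (0.29 ± 0.029), the licensing factor CDC6 (0.33 ± 0.028), UHRF1 (0.34 ± 0.027) and PCNA (0.27 ± 0.022) were the others called, while RRM1 (0.02) and RRM2 (0.03) were not.

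The p53, heat shock and mitochondrially encoded lists had medians near 0. Of 15 p53 targets, SESN2 was called lower (-0.30 ± 0.047), a call lost under cell cycle matching, depth matching and the thinned score, at -0.24, -0.24 and -0.24, while CDKN1A (-0.05 ± 0.038) and MDM2 (-0.15 ± 0.031) stayed within 1.2-fold and the median was -0.03. Of 13 heat shock genes none was called by edgeR, with 1 higher and 6 lower at an adjusted p under 0.05, against 20.6% and 24.8% of all genes, and a median of -0.03. Cytosolic ribosomal protein genes, many of which have processed pseudogenes that can take reads, were slightly lower, with 80 of 86 lower at an adjusted p under 0.05 against 24.8% of all genes, none by 1.2-fold, and a median of -0.11 that matching left at -0.11. Of 13 mitochondrially encoded genes MT-ND6 was called higher (0.27 ± 0.024, median 0.0036), a call also lost under these 3 settings, at 0.21, 0.20 and 0.21. The 3 nuclear retained RNAs had a median of 0.18 and were all higher at an adjusted p under 0.05. KCNQ1OT1 was called (0.27 ± 0.036) but not when matched for the cell cycle (0.25) or with the thinned score (0.22), with MALAT1 at 0.18 ± 0.027 and NEAT1 at 0.07 ± 0.022. NEAT1 turned to -0.057 when matched for the cell cycle, adjusted p = 0.039.

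**Figure D4:**
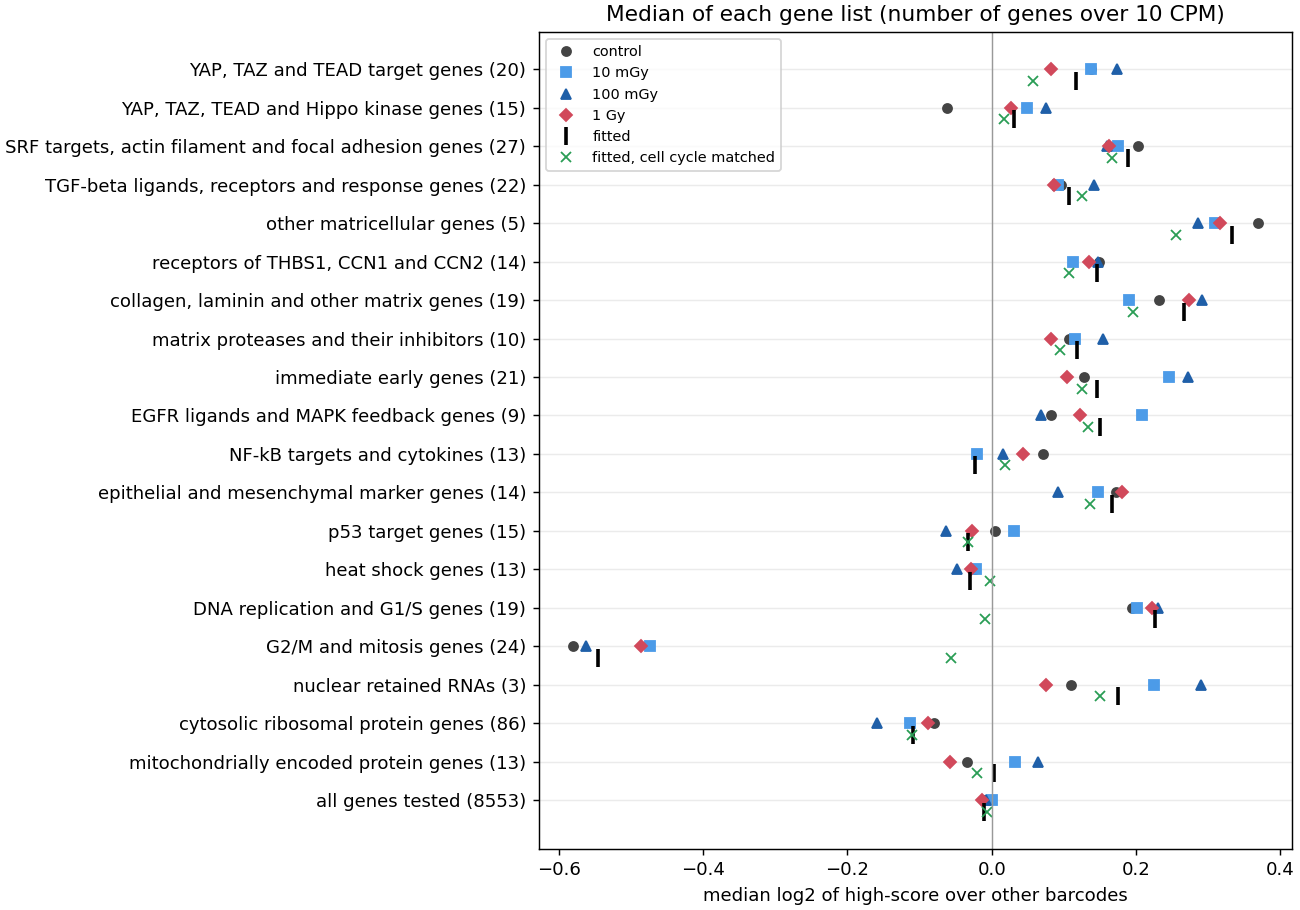
Median log2 of high-score over other barcodes (horizontal axis) for each gene list, with the number of genes over 10 CPM in brackets, 1 symbol per library, the median of the fitted differences (black bar) and of those after cell cycle matching (green cross). The G2/M list moves from -0.55 to -0.06 and the G1/S list from 0.23 to -0.009 on matching, while the matrix list lies at 0.27 and 0.20.

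Depth and the shape of the score were varied as well. When high-score barcodes were paired with others of similar UMI count, 210 genes were called higher and 109 lower, 179 and 104 of them the same as before. A score from barcodes thinned to 5000 UMIs kept 59.0%, 55.2%, 53.5% and 53.3% of the high-score barcodes (order of doses), and then 149 genes were called higher, 143 of them the same. The thinned score chose 765, 1222, 1140 and 838 barcodes, fewer than the full score in each library, so it could not keep all of them. Which single barcodes passed thus differed between the full and the thinned score. All 30 named genes were still called under both settings.

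High-score barcodes led by THBS1 differed from those led by the CCN genes. This split was made after the data were seen, was not matched for the cell cycle or depth, and carries no test. THBS1-led barcodes, with more UMIs of THBS1 than of CCN1 and CCN2 together, numbered 562, 291, 295 and 650 in the order of doses, and the CCN-led remainder 338, 961, 1130 and 496. Of 8553 genes, 82 (0.959%) were over 1.2-fold higher in THBS1-led barcodes in all 4 libraries and 47 (0.55%) over 1.2-fold lower.

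IGFBP4, which binds insulin-like growth factors, was at 185 against 127 CPM in the control, 183 against 113 at 10 mGy, 188 against 115 at 100 mGy and 188 against 124 at 1 Gy, THBS1-led against CCN-led, in CPM without TMM scaling. GREM1 was at 349 against 288 CPM in the control, 257 against 144 at 10 mGy, 172 against 94.5 at 100 mGy and 357 against 263 at 1 Gy, and cyclin D1, CCND1, at 150.2 against 109.6 CPM in the control, 75.2 against 51.8 at 10 mGy, 76.7 against 50.4 at 100 mGy and 129 against 90.7 at 1 Gy. The THBS1-led barcodes were higher in each library for these 3 genes. NREP, DUSP4, G0S2, CCNB1, ZMIZ1, KRT17 and FRMD6 completed the 10 largest of this direction among genes with a mean of at least 50 CPM, with median log2 differences of 0.44 to 0.62. The G2/M and mitosis list, which holds CCNB1, had medians without a common direction, at 0.04, -0.20, -0.19 and 0.07 in the order of doses. Its genes went both ways. Of 24, CCNB1 and KIF20A (0.61) were over 1.2-fold higher in all 4 libraries, against 0.959% of all genes, and 0 over 1.2-fold lower. By smaller amounts DLGAP5 (0.48) and CCNB2 (0.25) were higher in each library, and CDK1 (-0.36), AURKB (-0.38) and CCNA2 (-0.26) lower in each, as medians over libraries. Below 50 CPM, list genes higher in all 4 libraries included KRT81 (1.14), SNAI2 (0.88), COL1A1 (0.74) and LAMB3 (0.66), as medians over libraries.

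On the CCN side EGR1 differed most among genes of at least 50 CPM, at 31.1 against 52.5 CPM in the control, 41.9 against 109 at 10 mGy, 52.8 against 112 at 100 mGy and 46.1 against 88.7 at 1 Gy, lower in THBS1-led barcodes in each library. The rest of the 10 largest on this side at that level were histone genes, among them HIST1H4C, at 1375 against 1994 CPM in the control, 866 against 2300.5 at 10 mGy, 1792 against 3599.9 at 100 mGy and 1290.0 against 1893 at 1 Gy. Their separation was widest at 10 mGy. NUAK2, close to the floor at a mean of 11.7 CPM, had a median of -0.69 and a range of -1.15 to -0.34. In THBS1-led barcodes it was at only 6.52 CPM at 10 mGy and 5.10 at 100 mGy. By list, the epithelial and mesenchymal markers had a median log2 difference of 0.22 (THBS1-led over CCN-led), other matricellular genes 0.19, TGF-beta genes 0.10 and YAP, TAZ and TEAD targets -0.08, beside -0.0084 over all genes. TGFB2 had no common direction, at -0.12, 0.14, 0.38 and 0.03 in the order of doses. FN1 was higher in THBS1-led barcodes by 0.07, 0.24, 0.27 and 0.04, most at 10 and 100 mGy, and ANKRD1 was lower in each library, at -0.40, -0.24, -0.14 and -0.34.

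**Figure D5:**
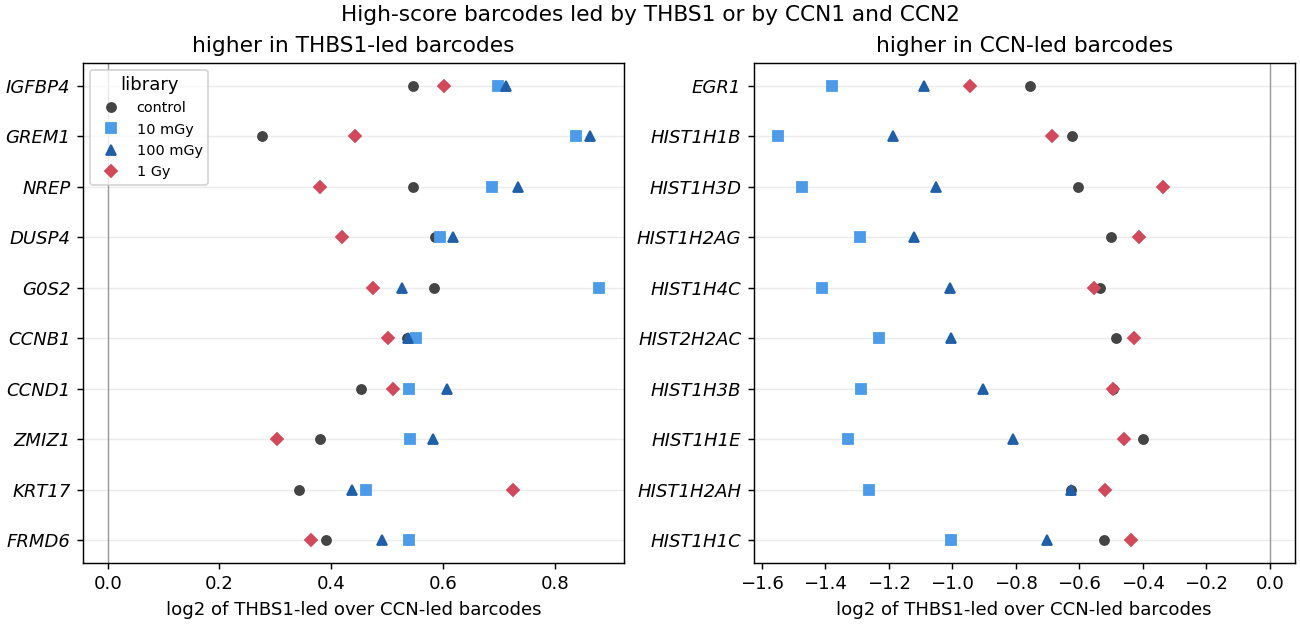
Log2 of the level in THBS1-led over CCN-led high-score barcodes (horizontal axes), 1 symbol per library, for the 10 genes furthest in each direction among those over 1.2-fold in all 4 libraries with at least 50 CPM. EGR1 and the histone genes lie on the CCN side, with EGR1 between -1.38 and -0.75.

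The p-values and SE come from 4 libraries of 1 line at 4 doses, not from a spread over independent cultures of 1 dose. edgeR shares the spread between genes, with 19.96 prior against 3 residual degrees of freedom. An SE can thus be smaller than a gene's own libraries would give, as for EGR1, whose library differences had an SD of 0.52. It was so for the held-out score genes too, whose library differences had an SD of 0.12 for CCN2, 0.07 for CCN1 and 0.05 for THBS1. Free RNA in droplets was not estimated and doublets were kept. 11 list genes lay close to the fold limit and went under it, at 0.22 to 0.26 with an adjusted p still under 0.05, when 1 library was left out. These were COL7A1, KRT7, PCNA, PMEPA1, SPOCK1 without the control, JUNB, KCNQ1OT1 without 10 mGy, BHLHE40, KCNQ1OT1, LAMB1, MCM2, MT-ND6, PCNA without 100 mGy and COL7A1, KRT7, LAMB1, PCNA, PMEPA1 without 1 Gy.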

How the data were processed

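BEAS-2B cells were profiled in 4 droplet 3′ libraries (1 per dose, Chromium v3 chemistry), and groups were taken from the treatment labels. Raw UMI counts of 36601 genes in each barcode, without normalization, are what the authors deposited. The file headers name Cell Ranger 7.0.1, and the submitters' processing notes list STAR and GRCh37. Annotation, intron counting and any cell filter: not given in the sources used here.

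Counts were summed per library over high-score and over other barcodes, leaving out THBS1, CCN1 and CCN2, which gave 8 sums. Genes with a mean of at least 10 CPM were fitted with edgeR 4.0.16 (quasi-likelihood test, TMM, library as a block) in R 4.3.3, with Benjamini-Hochberg adjustment over all genes. Calls needed an adjusted p under 0.05 and a fold over 1.2, the fold limit being that of the study's methods. A held-out gene was tested in the same way after selection on the other pair. The fits were tested on simulated data. DESeq2 1.42.0, other scalings, floors, selections and matched barcodes were alternatives. Cell cycle matching paired barcodes within 5 by 5 classes of the G1/S and G2/M shares, and depth matching within deciles of the UMI count.

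The members, the 19 gene lists and the tests were chosen with earlier results of these data known. Named genes were the score genes, list members over the floor, and the 15 largest rises and 15 largest falls among called genes with a mean of at least 50 CPM and 1 direction in all libraries. EDN1, AC037198.1, AC092807.3 and the genes of the split by leading gene were named after their values were seen. Gene positions were matched by identifier to GENCODE 29 (99.9% of genes), and promoter letters came from RefSeq (GRCh38.p14). Neither was checked against the build used for the counts, which the processing notes list as GRCh37. One gene of the lists is counted but not reported here. No doublet caller was run. Intervals are exact 95% Poisson intervals and cover counting error only.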

Additional observations from a re-analysis of the deposited data

Results flagged for a closer look

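The rise of F3, tissue factor, in high-score barcodes was larger at 100 mGy than in the other libraries. The log2 difference was 0.65 at 100 mGy against 0.49 in the control, 0.49 at 10 mGy and 0.48 at 1 Gy, so the gap to the nearest library was most of the whole range. It was the 1 such case among 33 differences checked over the 4 libraries (30 named genes and 3 held-out genes), and chance alone gives about 1 in 20. The difference between libraries was not tested, since each dose has 1 library.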

How the results depend on the processing

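The counts of 227 higher and 137 lower genes became 84 higher and 9 lower after cell cycle matching. They were 452 higher and 250 lower against barcodes at or under the median score, 400 higher and 448 lower with no floor, 515 higher and 261 lower with a floor of 1 CPM and 49 higher and 30 lower with a floor of 100 CPM, where fewer genes were tested. Barcodes with at most 5% mitochondrially encoded UMIs gave 368 higher, and the thinned score 149 higher. The 5% limit left 157, 775, 939 and 229 high-score barcodes in the order of doses. The thinned score chose 765, 1222, 1140 and 838. The cause of these 2 changes in the number of genes was not tested. Without the library block, so that differences between libraries count as spread, 1 higher and 5 lower were called, and THBS1 (0.17), CCN1 (0.16) and CCN2 (0.69) kept their log2 differences but not their adjusted p. Leaving out 1 library at a time gave 221 to 251 higher and 132 to 152 lower genes, and log2 differences of 0.15 to 0.18 for THBS1, 0.13 to 0.18 for CCN1 and 0.64 to 0.71 for CCN2. DESeq2 called 223 higher and 142 lower, and library size alone 297 higher and 114 lower. Of the alternatives for the 30 named genes, 554 kept the direction and the adjusted p and 32 lost an adjusted p under 0.05, 28 of these without the block and 4 (DEPDC1, CCNB1, HMMR and DLGAP5) under cell cycle matching. None of these reversed. With the 1.2-fold limit as well, 12 of the 15 rises and 0 of the 15 falls stayed called under cell cycle matching. Among 89 further genes named from the lists or singled out, EGFR turned to -0.044 with cell cycle matching and -0.0016 with no floor, and NEAT1 (-0.057) and PCNA (-0.025) turned with cell cycle matching, which uses PCNA. These genes lost an adjusted p under 0.05 in 146 cases, 70 without the block and 15 under cell cycle matching, and gained it in 24. List medians moved by over 1 SD of the libraries in 69 cases, 12 with no floor, 10 against barcodes at or under the median score and 9 under cell cycle matching, and not in 310. A floor of 100 CPM left no p53 target to take a median over. The library block pairs the high-score and other barcodes of each library, and no second pairing was possible between doses, which have 1 library each.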

Other observations

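The genes here were picked out after their values were seen, from those called when high-score barcodes were compared with barcodes matched for the cell cycle. On the lower side 9 genes were called, and only HMOX1, heme oxygenase 1, which degrades heme and is induced by oxidative stress, was abundant. HMOX1 was at 243 against 289 CPM in the control, 266 against 296 at 10 mGy, 144 against 162 at 100 mGy and 283 against 317 at 1 Gy without matching, high-score against other barcodes, lower in each library. Its log2 difference was -0.19 ± 0.022 (SE, n = 4 libraries) without matching, under the fold limit, and -0.31 ± 0.026 with it, adjusted p = 7.6e-09 (edgeR's quasi-likelihood test). The centromere histone gene CENPA (-0.30 ± 0.057), the helicase gene PIF1 (-0.47 ± 0.064) and the small GTPase gene RAB29 (-0.26 ± 0.035) were also lower after matching, as were PITPNA-AS1, GAS1 and C6orf226. DDIT3 and TMEM177, at means of 10.5 and 10.6 CPM, lay so close to the 10 CPM floor that their calls are given only as a description. PIF1 had the largest fall of all called genes without matching, at 10.9 against 26.1 CPM in the control, 7.94 against 18.4 at 10 mGy, 10.2 against 26.9 at 100 mGy and 14.4 against 30.2 at 1 Gy, a log2 difference of -1.22 ± 0.049.

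On the higher side, genes outside the lists included SH3RF2 (0.56 ± 0.049 when matched), the interferon-inducible GTPase gene GBP1 (0.45 ± 0.037) and EDIL3, a secreted integrin ligand (0.39 ± 0.029). EDIL3 was at 83.8 against 61.2 CPM in the control, 81.8 against 61.5 at 10 mGy, 71.4 against 54.0 at 100 mGy and 75.7 against 56.9 at 1 Gy without matching, higher in high-score barcodes of each library. GBP1 was at 47.4 against 31.3 CPM in the control, 65.0 against 47.7 at 10 mGy, 67.6 against 43.3 at 100 mGy and 45.0 against 28.7 at 1 Gy.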
